A study of Homo sapiens with 12 samples.

Results

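Aminoacyl-tRNA synthetases, the enzymes that attach each amino acid to its transfer RNA, were followed through 36 genes in HCT116 cells, a human colorectal carcinoma line. The genes were taken by symbol, not by a threshold on their values: 20 encode cytosolic enzymes, and 16, with symbols ending in 2, encode mitochondrial ones. They were found among 56634 symbols in the count table, and all 36 were among the 13084 genes that passed the filter on low counts. GARS and KARS are counted as cytosolic here, although each of these genes also gives rise to the mitochondrial enzyme.

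Cytosolic synthetases serve the ribosomes of the cytoplasm, and most mitochondrial counterparts come from separate nuclear genes. Uncharged transfer RNA activates the kinase GCN2, which phosphorylates the initiation factor eIF2 and favours translation of ATF4. ATF4 is a transcription factor that, through C/EBP-ATF response elements, induces amino acid synthesis enzymes, amino acid transporters and many cytosolic synthetases.

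RNA was sequenced from 4 groups of 3 libraries, all from the same cell line and all harvested after 3 hours. Control cells were kept in 0.1% DMSO for the 3 hours. Senexin B cells received 1 µM of the drug, an inhibitor of the Mediator kinases CDK8 and CDK19, for 3 hours. TNF cells were given DMSO for 1 hour and then TNF, a cytokine that activates NF-kB, at 10 ng/mL for 2 hours. Cells given both agents had Senexin B for 1 hour before the 2 hours with TNF. No DMSO is recorded for the groups with Senexin B, so whether their vehicle matched the other groups is not known here. The labels call the libraries of a group biological replicates but name no separate cultures or days, so p-values measure only the spread between these libraries.

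Totals ran from 5835226 counts in TNF replicate 1 to 9281176 in Senexin B replicate 3. Of 12 epithelial markers 10 were tested and 2 were at 0 in every library, and their summed level was 4190 to 4950 CPM (counts per 1000000 counts of the scaled library). Of 10 fibroblast markers 1 was tested and 5 were at 0, with a summed level of at most 11.2 CPM, and none of 10 blood cell markers was tested, with 3 at 0 and at most 1.21 CPM. TNF replicate 1 stood apart in base composition: over the genes with a known transcript GC content, its deviation from the TNF mean had a rank correlation with GC of -0.529, against 0.37 and 0.331 in TNF replicates 2 and 3. Control replicate 1 stood apart over all tested genes. The chi-square per degree of freedom between libraries was 2.71 and 2.86 for it against control replicates 2 and 3, and 1.37 between those. For TNF replicate 1 the values were 2.79 and 2.5, against 1.25 between TNF replicates 2 and 3. The weight of control replicate 1 in the genes followed here is given below with each result it touches.

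Because ATF4 acts through a response element of known core, the RefSeq promoters (GRCh38.p14, 250 bases before to 50 bases after each start) were searched for TGATGNAA on both strands, read as TTNCATCA on the other. Promoters were matched for 16 of the 20 cytosolic and 14 of the 16 mitochondrial genes, with none for DARS, LARS, VARS, YARS, AARS2 and VARS2. The core was found in 7 of the 16 cytosolic promoters (43.8%) and in 1 of the 14 mitochondrial ones (7.1%), against 1217 of all 27305 genes with promoters in the table (4.46%). The 8 matches are shown with 11 bases on each side, on the strand of the gene and with the core in capitals, followed by ASNS, an ATF4 target outside the set that also carries it. Of other genes on the ATF4 list that were searched, CHAC1 had the core in its promoter, and TRIB3, SESN2, STC2 and ATF4 itself did not. The motif, like the lists, was chosen with earlier results of these data known.
AARS: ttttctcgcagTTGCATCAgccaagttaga
CARS: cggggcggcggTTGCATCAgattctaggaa
GARS: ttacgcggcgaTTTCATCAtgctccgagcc
IARS: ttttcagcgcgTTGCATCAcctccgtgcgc
MARS: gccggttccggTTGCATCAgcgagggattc
NARS: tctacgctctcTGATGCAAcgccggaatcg
TARS: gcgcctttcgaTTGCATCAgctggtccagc
YARS2: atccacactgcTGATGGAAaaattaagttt
ASNS: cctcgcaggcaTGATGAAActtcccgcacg

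In GRCh38.p14 these windows lie at chr16:70289675-70289704 (AARS, minus strand), chr11:3057407-3057436 (CARS, minus), chr7:30594834-30594863 (GARS, plus) and chr9:92293692-92293721 (IARS, minus). The others lie at chr12:57488053-57488082 (MARS, plus), chr18:57621804-57621833 (NARS, minus), chr5:33440956-33440985 (TARS, plus), chr12:32756076-32756105 (YARS2, minus) and chr7:97872458-97872487 (ASNS, minus). In CARS, IARS, MARS and TARS the core began between 13 bases before and 3 bases after the start, and in GARS 33 bases before it. AARS and YARS2 carried it farther upstream, at -187 and -197, and NARS carried it at 15 within the transcript. A match describes the letters in the window and is not evidence of binding. A second motif, the E-box CACGTG bound by MYC and related factors, was found in 1 cytosolic promoter (IARS) and in 3 mitochondrial ones (CARS2, EARS2 and MARS2), against 8.77% of all promoters.

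The 2 classes stood at different levels. Per kilobase of annotated exon, the median cytosolic gene had 54.7 ± 1.85 CPM and the median mitochondrial gene 8.31 ± 0.195 CPM in control cells (SD, n = 3), a ratio of 6.59 ± 0.0894. With the length of the longest transcript in place of all exons the ratio was 6.33. By all exons the highest were EPRS, the enzyme joining glutamyl and prolyl activities in a single chain, at 82.9 ± 1.06 CPM per kilobase, KARS at 82.4 ± 2.05, IARS at 81.5 ± 2.73, GARS at 78.2 ± 2.43 and NARS at 77.4 ± 1.49, and neighbours among them overlapped between libraries or lay within their spread. IARS2, the mitochondrial isoleucyl enzyme, had 67.6 ± 0.9, and SARS2 was last at 1.17 ± 0.184. CARS and HARS were the lowest cytosolic genes, at 11.2 ± 0.455 and 17.4 ± 1.16, also by the longest transcript. Other places moved with the length: EPRS was rank 1 by all exons and 8 by the longest transcript, and IARS2 was rank 7 and 13. Along the whole order, 22 of the 35 pairs of neighbours overlapped between libraries, so only coarse steps in it exceed the replicate spread.

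Cytosolic and mitochondrial enzymes for the same amino acid differed by very unequal factors. Per kilobase of exon, SARS exceeded SARS2 by a factor of 35.9 ± 5.94 in control cells, and FARSA, the catalytic subunit of the cytosolic phenylalanyl enzyme, exceeded FARS2 by 31.2 ± 3.25. With the longest transcript these factors were 46.6 ± 7.71 and 12.9 ± 1.35, and the second then lay below those of WARS, TARS and EPRS over WARS2, TARS2 and PARS2. At the other end IARS exceeded IARS2 by 1.21 ± 0.0537. For HARS and HARS2 even the order turned with the length used, with a ratio of 0.938 ± 0.0775 by all exons and 1.42 ± 0.117 by the longest transcript. HARS and HARS2 lie head to head on opposite strands with 437 bases of exon in common. The libraries do not mark strand, so reads in that stretch cannot be assigned to either gene by strand. SARS2 shares 46.2% of its exon length with the gene model AC011455.2 on the same strand, and its 21 to 42 counts per library make it the least precise member. How reads in that shared stretch were counted is not known here, so the level of SARS2 and the SARS ratio may also be biased.

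**Figure D1:**
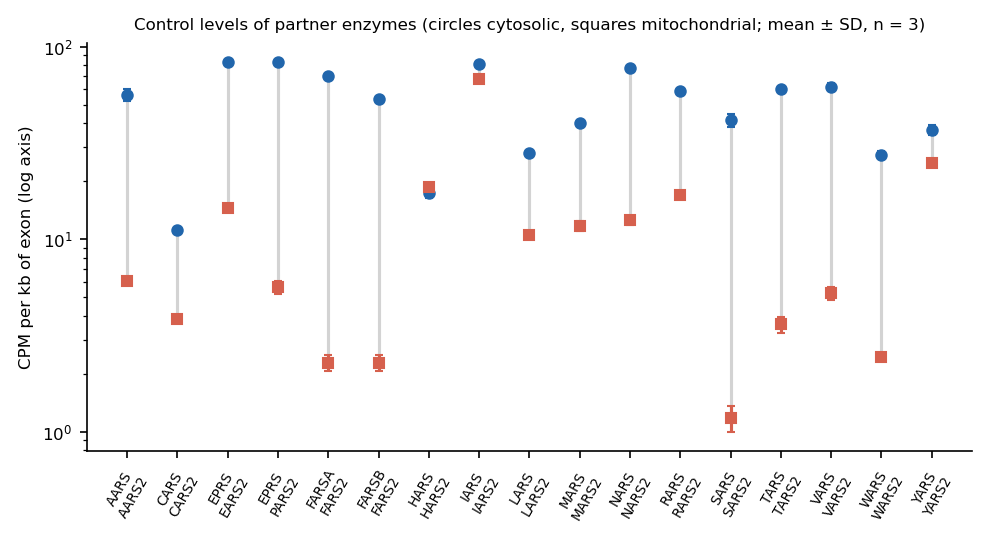
Control levels in CPM per kilobase of exon, on a log axis, for each cytosolic synthetase (circles) and its mitochondrial partner (squares), as mean ± SD of 3 libraries. As counted, the gap is widest for SARS and SARS2 and nearly closed for IARS and IARS2 and for HARS and HARS2.

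The summed level of the 20 cytosolic synthetases was 5146, 5421 and 5397 CPM in the 3 control libraries. It was 5715, 5739 and 5775 CPM with Senexin B, 5774, 5721 and 5734 CPM with TNF, and 5783, 5920 and 5951 CPM with both. Every treated library therefore lay above every control library, and control replicate 1 was the lowest of all 12. The 16 mitochondrial synthetases summed to 852, 836 and 834 CPM in control, 860.3, 845 and 848 CPM with Senexin B, 810.3, 815 and 839.8 CPM with TNF and 856, 840.2 and 840.6 CPM with both, so that the TNF libraries overlapped the controls and lay below those with Senexin B. Within each library, which needs no scaling between libraries, the ratio of cytosolic to mitochondrial counts was 6.04 to 6.48 in control, 6.64 to 6.81 with Senexin B, 6.83 to 7.13 with TNF and 6.76 to 7.08 with both. In bulk RNA such values are shares of the total, and fewer cells of a kind cannot be told apart from less RNA per cell.

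**Figure D2:**
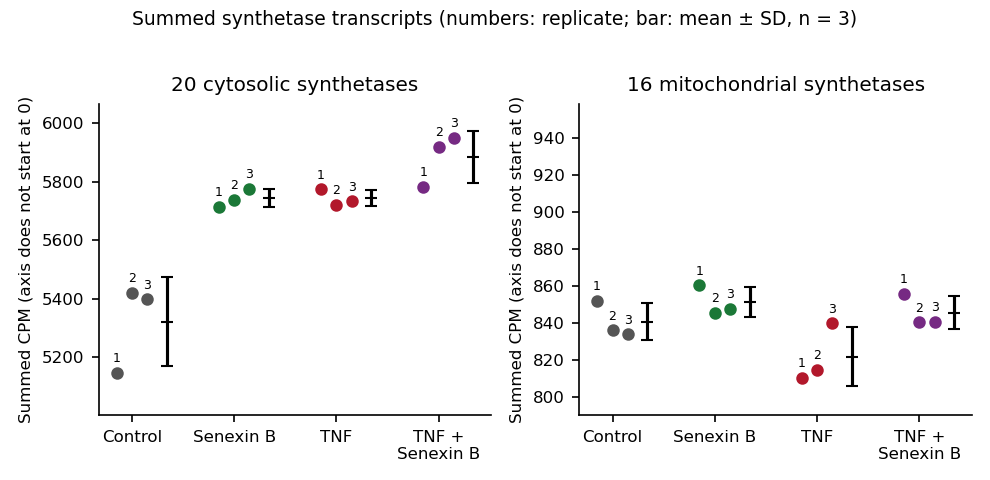
Summed CPM of the 20 cytosolic (left) and 16 mitochondrial (right) synthetases in each library, numbered by replicate, with mean ± SD of each group and axes that do not start at 0. The 9 treated libraries lie above the 3 control libraries for the cytosolic genes and not for the mitochondrial ones.

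**Figure D3:**
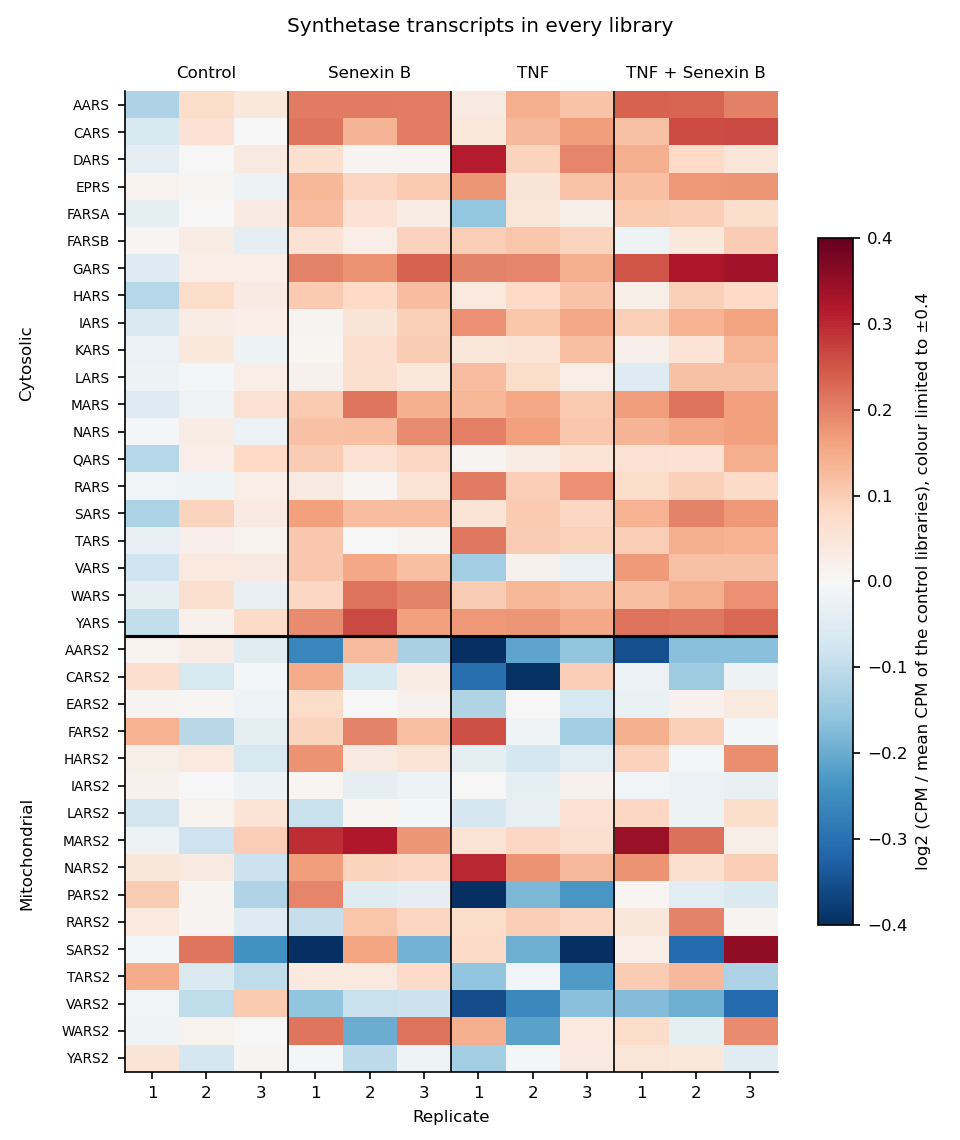
Level of each of the 36 genes in each of the 12 libraries as log2 of its CPM over the mean CPM of the control libraries, with colour limited to 0.4 either way. Cytosolic genes in the upper block are mostly red in the 9 treated libraries, while the mitochondrial block is mixed and noisier.

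The first question was what Mediator kinase inhibition did to these transcripts in cells without TNF. With Senexin B, 7 of 20 cytosolic synthetases rose and none fell (edgeR's quasi-likelihood test, Benjamini-Hochberg adjusted p under 0.05 over all tested genes), where 1.53% of all tested genes rose and 1.51% fell. All 20 fitted changes were above 0, with a median log2 fold change of 0.10 against 0.00 for all genes, and in 11 genes every Senexin B library lay above every control library (9.96% of all genes). None of the 16 mitochondrial synthetases was called by edgeR or by DESeq2, 1 had an unadjusted p under 0.05 (14.2% of all genes), and their median was 0.04. The changes were small: the called genes rose by 10.5 to 15.2 percent.

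GARS, the glycyl enzyme (chr7:30594681-30634033, plus strand), had 313, 330.4 and 330.4 CPM in control replicates 1 to 3 and 372, 367 and 382 CPM with Senexin B. All 3 treated libraries lay above the controls, and the log2 fold change was 0.20 ± 0.04 (adjusted p = 0.000326). YARS, the tyrosyl enzyme (chr1:32775237-32818153, minus strand), went from 284, 307 and 320.2 CPM to 346, 365 and 340.4 CPM, again with no overlap, a log2 fold change of 0.20 ± 0.04 (adjusted p = 0.000653). These were the calls kept in all 20 alternative fits. AARS, the alanyl enzyme, went from 233, 267 and 261 CPM to 292, 292 and 292 CPM, with all Senexin B libraries nearly equal and control replicate 1 the low point. Its change was 0.20 ± 0.04 (adjusted p = 0.0015); without control replicate 1 the adjusted p was 0.0548, the highest of a range from 3.858e-06 over the alternatives.

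The other calls were less firm. WARS, the tryptophanyl enzyme and a classical interferon-gamma target, had 170.3, 183 and 171 CPM in control and 185, 203 and 200.3 CPM with Senexin B (0.17 ± 0.05, adjusted p = 0.0239). CARS, the cysteinyl enzyme, had 107, 117 and 112 CPM and 129.9, 123 and 129 CPM (0.18 ± 0.05, adjusted p = 0.03). In both genes the groups did not overlap. MARS, which charges the initiator and the elongator methionine transfer RNA, had 273, 279.6 and 295 CPM and 304, 328 and 311 CPM (0.15 ± 0.04, adjusted p = 0.0189). NARS, the asparaginyl enzyme, had 315, 323 and 311 CPM and 344, 344 and 361 CPM (0.14 ± 0.04, adjusted p = 0.0221). CARS lost its call in 6 and MARS, NARS and WARS in 4 of the 20 alternatives. Without control replicate 1 only GARS and YARS were called, the cytosolic median fell to 0.07 and the mitochondrial median was 0.07 as well, so the contrast between the class medians under Senexin B rests on that library. Without it and TNF replicate 1 together, 7 cytosolic genes were called, with EPRS in place of CARS, and both medians were again 0.07.

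Among the 13 cytosolic genes not called, EPRS, HARS, SARS and VARS also had all Senexin B libraries above the controls, with fitted changes of 0.11, 0.10, 0.14 and 0.13. For the others the interval of the difference was narrow and included 0 in each: LARS, the leucyl enzyme, had a 95% interval of -0.04 to 0.13 and DARS, the aspartyl enzyme, of -0.07 to 0.12. MARS2, the mitochondrial methionyl enzyme, had the largest fitted change of all 36 genes. It had 34.9, 33.5 and 37.9 CPM in control and 43.5, 44.3 and 40 CPM with Senexin B, with no overlap, and a log2 fold change of 0.26 ± 0.08 whose adjusted p of 0.0501 just missed the threshold. It was called in 10 of the 20 alternatives. In 2 of the 16 mitochondrial genes, MARS2 and NARS2, every Senexin B library lay above every control library, where 9.96% of all genes did. The mitochondrial standard errors ran from 0.04 to 0.23 against 0.04 to 0.05 for the cytosolic genes.

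The calls were then sorted by what is known of ATF4. Of 12 cytosolic synthetases listed as ATF4-induced, a list written with earlier results of these data known and therefore no independent evidence, 7 rose with Senexin B and the median was 0.15. Of the 8 not on that list none was called, with a median of 0.06. Sorted by the promoter core shown above, which is no independent evidence either, 5 of the 7 genes that carry it rose (AARS, CARS, GARS, MARS and NARS), with a median of 0.15, against 1 of 9 without it (WARS), with a median of 0.08. IARS and TARS carry the core and had 0.05 ± 0.04 and 0.04 ± 0.04. YARS rose and had no promoter to search. Both sorts depend on single libraries: without control replicate 1 only GARS and YARS were called, and without Senexin B replicate 3 only AARS, GARS and YARS.

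In the cytosol, 8 of the enzymes are held in the multi-synthetase complex, together with the scaffold proteins AIMP1, AIMP2 and EEF1E1. With Senexin B, 1 of the 8 complex members was called (MARS), with a median of 0.06, and 6 of the 12 enzymes outside the complex were, with a median of 0.14. The scaffolds had log2 fold changes of 0.06 ± 0.06 for AIMP1, 0.16 ± 0.08 for AIMP2 and 0.00 ± 0.09 for EEF1E1, none of them called. Over the 20 cytosolic genes the Senexin B change had a rank correlation with transcript GC content of 0.67. It was 0.49 with offsets that remove each library's GC trend, and 0.09 over all 36 members as counted. The sorts by ATF4 list, promoter core and complex were not separated from GC content.

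The second question was what TNF did. With TNF alone, 9 of 20 cytosolic synthetases rose and none fell, where 5.81% of all tested genes rose and 4.2% fell. Their median log2 fold change was 0.12 (all genes -0.01), 18 of the 20 were above 0, and 12 had all TNF libraries above all controls (12.6% of all genes). Of the 16 mitochondrial synthetases none rose and 1 fell by edgeR, none was called by DESeq2, and 1 was higher and 3 were lower at an unadjusted p under 0.05 (22.7% of all genes in either direction). The mitochondrial median was -0.04, with 4 of 16 above 0. The control libraries here are those of the Senexin B comparison, so a control library that stands apart moves both.

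DARS had 163, 167 and 171 CPM in control and 208, 178 and 191 CPM with TNF, a change of 0.20 ± 0.05 (adjusted p = 0.00343), with the highest value in TNF replicate 1. GARS had 372, 371 and 358 CPM with TNF (0.18 ± 0.04, adjusted p = 0.000897). YARS had 342, 344 and 338 CPM (0.17 ± 0.04, adjusted p = 0.00356). All TNF libraries of these genes lay above the control libraries given before. IARS, the isoleucyl enzyme and a member of the complex (chr9:92210207-92293756, minus strand), had 579, 616 and 613 CPM in control and 684, 651 and 671 CPM with TNF (0.15 ± 0.04, adjusted p = 0.0029). RARS, the arginyl enzyme of the same complex, had 199.8, 199 and 205 CPM and 233, 216 and 229 CPM (0.16 ± 0.04, adjusted p = 0.00743). In neither gene did the groups overlap. NARS had 364, 354 and 341 CPM with TNF, a change of 0.16 ± 0.04 (adjusted p = 0.00403). MARS, TARS (the threonyl enzyme) and EPRS rose by 0.13, 0.13 and 0.11 on the log2 scale, with adjusted p of 0.0314, 0.0215 and 0.0383. GARS, IARS and NARS kept their calls in all 20 alternatives. EPRS lost its call in 12, TARS in 6, MARS in 5, RARS and YARS in 2 and DARS in 1.

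VARS2, the mitochondrial valyl enzyme (chr6:30908242-30926459, plus strand), was the only member to fall. It had 43.8, 41.2 and 47.5 CPM in control and 34.5, 36.9 and 39.3 CPM with TNF, with no overlap and a log2 fold change of -0.25 ± 0.08 (adjusted p = 0.024). The call was lost in 8 of the 20 alternatives, and 22% of the exon length of VARS2 is shared with GTF2H4 on the same strand. AARS2 and PARS2, the alanyl and prolyl enzymes of mitochondria, also had all TNF libraries below the controls (11.8% of all genes) without being called, at -0.26 ± 0.10 and -0.26 ± 0.13. NARS2 went the other way without being called, with all TNF libraries above the controls at 0.20 ± 0.07 (adjusted p = 0.0766). Such a separation held for 2 of the 16 mitochondrial genes, NARS2 and RARS2, and for 12.6% of all genes. Of the cytosolic genes, VARS and FARSA had fitted changes below 0, at -0.05 ± 0.04 and -0.02 ± 0.05.

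The remaining members are given by their ranges. IARS2 stayed at 274 to 285 CPM over all 12 libraries, with every fitted pairwise change within 0.02 of 0. The leucyl enzyme of mitochondria, LARS2, ranged from 67.7 to 76.3 CPM, EARS2 from 76.8 to 87.9, HARS2 from 66.1 to 79, YARS2 from 48.9 to 55.8 and RARS2 from 40.3 to 49.3 CPM, with overlap between TNF and control in all but RARS2. The low-count genes TARS2, FARS2 and WARS2 ranged from 12.6 to 16.3, from 10.02 to 13.2 and from 8.09 to 10.9 CPM, and CARS2 from 30.4 to 44.3 CPM. In the cytosol KARS, which charges lysine transfer RNA, ranged from 329.6 to 367 CPM, QARS, the glutaminyl enzyme of the complex, from 184 to 220.4 CPM, LARS from 220.3 to 249 CPM and FARSB, the partner subunit of FARSA, from 175 to 194 CPM. None of these was called in any comparison.

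**Figure D4:**
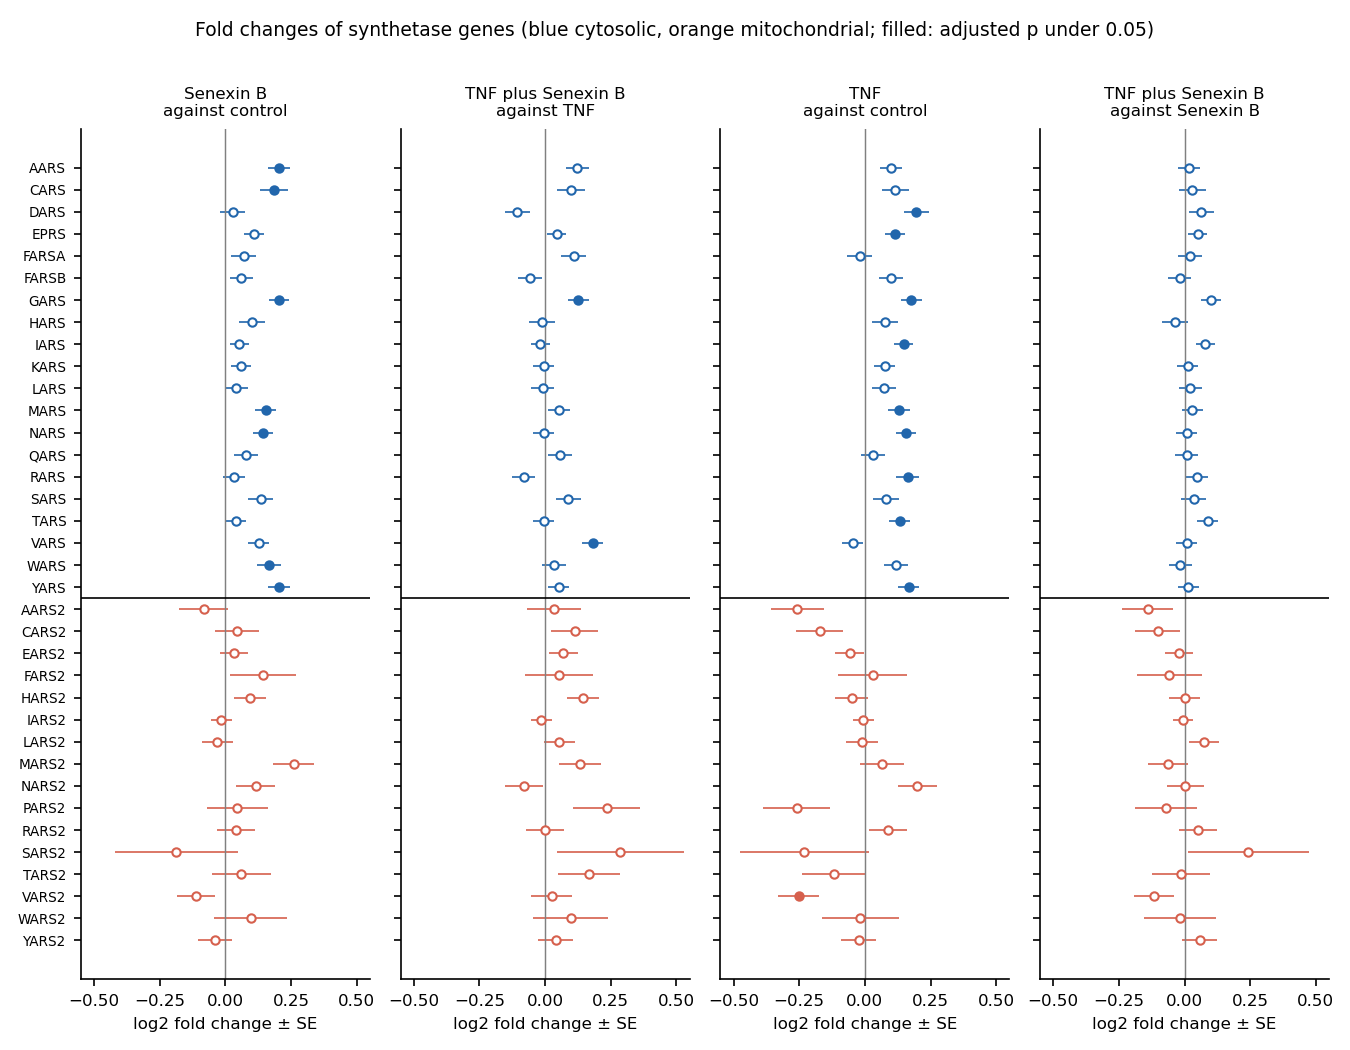
Log2 fold change with its standard error for each of the 36 genes in the 4 pairwise comparisons, blue for cytosolic and orange for mitochondrial genes, with filled circles for an adjusted p under 0.05. Filled circles sit among the cytosolic genes against control on the right of 0, and VARS2 is the filled circle on the left.

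The TNF change varied with base composition. Transcript GC content had a median of 47.7% in the cytosolic and 51.2% in the mitochondrial genes (48.8% over the 12223 tested genes with a value). Across all these genes the rank correlation of the TNF change with GC was -0.411, and across the 36 members it was -0.56, a description over genes that share the same libraries. Offsets were then used that remove each library's GC trend, including a trend shared by a group. A weaker correlation therefore follows from the correction itself. With these offsets the correlation over the members became -0.18, and still 9 cytosolic genes rose and no mitochondrial gene was called. The list of genes was not the same: AARS, CARS and WARS were then called, and EPRS, RARS and TARS were not. The cytosolic and mitochondrial medians with that correction were 0.10 and -0.05. Without control replicate 1 and TNF replicate 1, the pair that stood apart, 4 cytosolic genes rose (GARS, IARS, NARS and RARS), with medians of 0.10 and -0.03. Without TNF replicate 1 alone the difference between the class medians was 0.17, against 0.15 with all libraries.

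**Figure D5:**
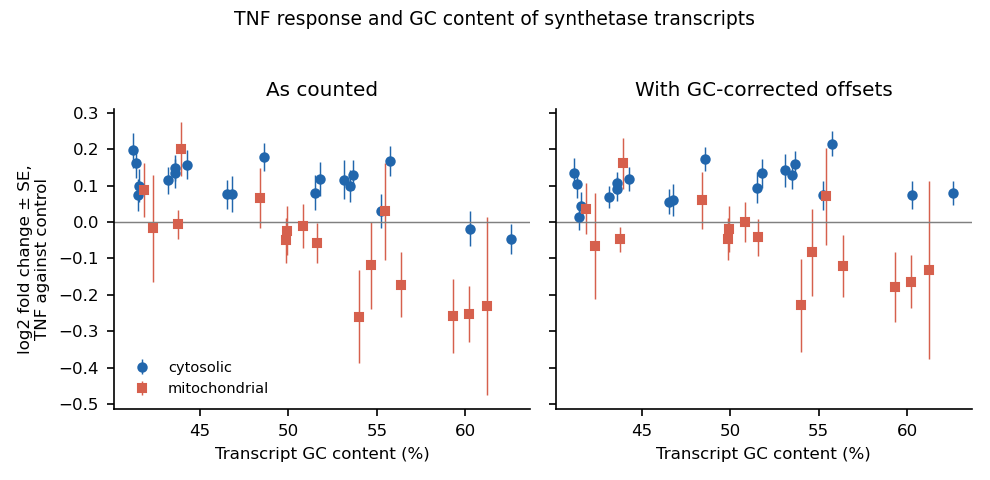
Log2 fold change with TNF against control (± SE) plotted on transcript GC content in percent for cytosolic (circles) and mitochondrial (squares) genes, as counted (left) and with GC-corrected offsets (right). The downward trend with GC on the left, a rank correlation of -0.56 over the 36 genes, is -0.18 on the right, where the offsets remove such trends by construction. Cytosolic genes on the right still lie mostly above mitochondrial ones.

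Of the complex members, 5 of 8 rose with TNF (DARS, EPRS, IARS, MARS and RARS), with a median of 0.12, and 4 of the 12 enzymes outside the complex did (GARS, NARS, TARS and YARS), with a median of 0.11. AIMP1, the scaffold that also gives rise to a secreted cytokine, rose by 0.23 ± 0.06 (adjusted p = 0.00546), a call lost with the GC-corrected offsets and without TNF replicate 1. AIMP2 had -0.05 ± 0.08 and EEF1E1 0.10 ± 0.09, neither called. Of the ATF4-listed synthetases 7 of 12 rose with TNF, with a median of 0.12, and of the others 2 of 8 (DARS and RARS), with a median of 0.08. By promoter core, 5 of 7 carriers rose and 2 of 9 without it, with medians of 0.13 and 0.08. These sorts depend on the processing. With GC-corrected offsets EPRS and RARS of the complex and TARS outside it lost their calls. AARS, CARS and WARS, all outside the complex, were then called. Without control replicate 1 and TNF replicate 1 only GARS, IARS, NARS and RARS were called. The sorts of the TNF calls were not separated from GC content either.

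The remaining comparisons asked what each agent did in the presence of the other. Senexin B added to TNF raised 2 of 20 cytosolic synthetases, where 2.9% of all tested genes rose and 2.55% fell. VARS, the valyl enzyme, had 342, 382 and 369.8 CPM with TNF and 424, 408 and 409 CPM with both, with no overlap, a change of 0.18 ± 0.04 (adjusted p = 0.00233). TNF replicate 1 was its low point, and with GC-corrected offsets the call was lost, with an adjusted p of up to 0.14 and as low as 0.000584 over all alternatives. GARS had 387, 406 and 409 CPM with both, above every TNF library, a change of 0.13 ± 0.04 (adjusted p = 0.0382) that lost its call in 7 alternatives. The cytosolic median was 0.04, 11 of 20 were above 0, and 8 had every library with both agents above every TNF library (11.3% of all genes). The lowest cytosolic changes were -0.11 ± 0.05 in DARS and -0.08 ± 0.04 in RARS, neither called (adjusted p = 0.206 and 0.298). No mitochondrial gene was called by edgeR or DESeq2, 1 had an unadjusted p under 0.05 (18.9% of all genes), and the median was 0.06 with 14 of 16 above 0. Over the 36 members the change had a rank correlation with GC of 0.65, which was 0.17 with GC-corrected offsets, which remove such trends by construction.

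TNF added to Senexin B moved no synthetase past the threshold, where 4.27% of all tested genes rose and 1.68% fell. By edgeR 3 cytosolic and no mitochondrial genes had an unadjusted p under 0.05 (14.9% of all genes), and DESeq2 called none. The cytosolic median was 0.02, with 17 of 20 above 0, and the mitochondrial median -0.02. GARS came closest, with 372, 367 and 382 CPM with Senexin B and the higher values with both given above, a change of 0.10 ± 0.04 (adjusted p = 0.135). For YARS the 95% interval of the change was -0.07 to 0.09 and for NARS -0.07 to 0.08. The fitted changes of these genes with TNF alone, 0.17 and 0.16, lie outside these intervals, and the interaction term below tests the difference itself.

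Whether the effect of one agent depended on the other was tested by the interaction term. No synthetase was called, where 0.0459% of all tested genes were, 3 cytosolic genes had an unadjusted p under 0.05 in the lower direction and no mitochondrial gene did (6.08% of all genes), and DESeq2 called none. The fitted interaction was below 0 in 18 of 20 cytosolic genes with a median of -0.08, and above 0 in 12 of 16 mitochondrial genes with a median of 0.06, where 51% of all genes were above 0. YARS and NARS had the most negative cytosolic terms, -0.15 ± 0.06 and -0.15 ± 0.05, with adjusted p of 0.748 and 0.741. Without control replicate 1 the cytosolic median was -0.06 and the mitochondrial median 0.03, and without it and TNF replicate 1 together they were -0.06 and 0.02.

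Other genes of the amino acid response were described from lists for comparison. ATF4 itself rose with Senexin B (0.19 ± 0.04, adjusted p = 0.000245) and with TNF (0.24 ± 0.04, adjusted p = 1.04e-06), from 515.5 ± 6.87 CPM in control to 590 ± 4.75 and 608 ± 26.4 CPM (SD, n = 3). It rose further with TNF in the presence of Senexin B (0.16 ± 0.04, adjusted p = 0.00179). With Senexin B added to TNF, ATF4 had 0.11 and was not called (adjusted p = 0.054), though 5 of 20 alternatives called it. Of the 13 tested ATF4 factors and regulators, 7 rose and 1 fell with Senexin B, 6 rose and none fell with TNF, 4 rose and 2 fell with Senexin B added to TNF, and 6 rose when TNF was added to Senexin B. Of all tested genes 1.53% rose and 1.51% fell with Senexin B, and 5.81% rose and 4.2% fell with TNF. With Senexin B added to TNF the shares were 2.9% and 2.55%, and with TNF added to Senexin B 4.27% and 1.68%. TRIB3, a pseudokinase that restrains ATF4, rose with Senexin B without TNF (0.54 ± 0.06) and with it (0.56 ± 0.06), but had -0.08 ± 0.06 with TNF alone. ATF5, the gene of this list that fell with Senexin B, had -0.61 (adjusted p = 1.56e-07). It also fell when Senexin B was added to TNF (-0.38, adjusted p = 0.00117). DDIT3, the transcription factor CHOP, had -0.21 ± 0.14 with Senexin B and fell when Senexin B was added to TNF (-0.56 ± 0.14, adjusted p = 0.00705). DDIT3 shares 355 bases of exon with MARS on the opposite strand, and MARS had 0.05 ± 0.04 in that comparison.

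Enzymes of amino acid synthesis and amino acid transporters rose in part with Senexin B. Of 16 tested synthesis enzymes 8 rose with Senexin B, 3 with TNF, 2 with Senexin B added to TNF and none with TNF added to Senexin B, and none fell in any. PSAT1 of serine synthesis rose by 0.26 ± 0.04 with Senexin B, and ASNS, asparagine synthetase, by 0.24 ± 0.04 with Senexin B and 0.31 ± 0.04 with TNF. Of 11 transporters 8 rose with Senexin B, 3 with TNF, 4 with Senexin B added to TNF and 1 with TNF added to Senexin B. Of all tested genes 1.53%, 5.81%, 2.9% and 4.27% rose in these 4 comparisons, in the same order. SLC7A1, the carrier of cationic amino acids, rose with Senexin B without TNF (0.17 ± 0.04) and with it (0.21 ± 0.04). MYC, an activator of many genes of protein synthesis, rose in all 4 comparisons, by 0.45 with Senexin B, 0.43 with TNF, 0.34 with Senexin B added to TNF and 0.33 with TNF added to Senexin B.

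Genes acting at neighbouring steps of translation were also counted. For comparison, 1.53% of all tested genes rose and 1.51% fell with Senexin B, and 5.81% rose and 4.2% fell with TNF. Of 7 eIF2 kinase and phosphatase genes none was called with Senexin B and 3 rose with TNF, among them PPP1R15A, the subunit that directs dephosphorylation of eIF2 (0.66 ± 0.07). Of 7 tested cytosolic elongation and tRNA export factors none was called with Senexin B, and with TNF 1 rose, EEF1A1, which carries charged transfer RNA to the ribosome (0.16 ± 0.03), and 1 fell, its partner EEF1D (-0.24 ± 0.05). Both calls were lost with GC-corrected offsets. Of 16 mitochondrial translation factors none was called with Senexin B, and 2 rose and 1 fell with TNF. Of 4 tested interferon-gamma marker genes 3 rose with TNF, IRF1 by 2.27 ± 0.09, while WARS, the fourth of them, had 0.12 ± 0.05 (adjusted p = 0.0966) and all TNF libraries above the controls. The rest of the 8 genes on that list were too low to be tested, with means of at most 0.1634 CPM with TNF.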

How the data were processed

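RNA of HCT116 cells was sequenced from libraries of a TruSeq kit that does not mark strand, per the labels' protocols. The deposited values were raw read counts per gene symbol, not normalized, in 12 columns, which were matched to the samples by the labels. The submitters' processing notes name the aligner STAR (2.4), SAMtools (1.2), Subread (1.4.6) with its counter featureCounts, and the build GRCh38 (hg38), so the authors deposited counts of reads aligned to that build. The annotation release, strand setting and handling of multi-mapping reads are not given in the sources used here.

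The quasi-likelihood F-test of edgeR (4.0.16, in R 4.3.3) was fitted to all 12 libraries with 1 coefficient per group. Library sizes were scaled by TMM, low genes were removed by filterByExpr on the groups, and dispersions were estimated robustly, with Benjamini-Hochberg adjustment over 13084 genes and 0.05 as the threshold. Standard errors are Wald errors scaled by the posterior quasi-dispersion. CPM are per TMM-scaled library. The pipeline was tested on simulated data. Lengths, GC content and gene positions came from GENCODE 29 (GRCh38), with GC known for 93.4% of tested genes, and promoters from RefSeq. Alternatives were DESeq2 1.42.0, RLE factors, no filter, only the compared groups, a replicate block, GC-corrected offsets, both of these, leaving out control replicate 1 and TNF replicate 1 together, and leaving out each library. The class difference is the median log2 fold change of the 20 cytosolic minus that of the 16 mitochondrial genes, given without a test.

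The members, lists, motifs and alternatives were chosen with earlier results of these data known. All members may be named; of other lists at most 4 called genes per comparison with the smallest adjusted p, plus ATF4, ASNS, TRIB3, DDIT3, MYC, AIMP1, AIMP2 and EEF1E1. PPP1R15A, EEF1A1, SLC7A1 and IRF1 follow that rule. At these totals 1 CPM is about 6 to 9 counts, so precision is lowest for SARS2.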

Additional observations from a re-analysis of the deposited data

Results flagged for a closer look

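No synthetase had an effect of Senexin B that differed with TNF by the interaction term of edgeR's quasi-likelihood test. Among the genes of the comparison lists 3 did, where 0.0459% of all tested genes were called. ASNS, asparagine synthetase, had an interaction of -0.32 ± 0.06 (adjusted p = 0.0117), with 192.5 ± 5.82 CPM in control, 227 ± 4.42 with Senexin B, 239 ± 8.73 with TNF and 225.5 ± 7.83 with both (SD, n = 3), and the call was lost without each of 6 libraries in turn. STC2, a secreted glycoprotein and ATF4 target, had -0.42 ± 0.07 (adjusted p = 0.000375), with 109 ± 5.7 CPM in control, 147 ± 3.67 with Senexin B, 197 ± 8.14 with TNF and 199 ± 3.39 with both. CLDN4, a tight junction protein on the epithelial list, had 0.5 ± 0.07 (adjusted p = 4.412e-05), with 117 ± 1.13 CPM in control, 106 ± 6.82 with Senexin B, 116 ± 2.68 with TNF and 149 ± 2.15 with both.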

How the results depend on the processing

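No result changed direction while called. With Senexin B against control, the cytosolic count was 7 and ran from 2 (without control replicate 1) to 10 (without TNF replicate 1) when 1 library was left out, and 1 mitochondrial gene, MARS2, was called with no filter, with only the compared groups, with the replicate block, with GC-corrected offsets and with both. The class difference, 0.06, ran from 0.0034 (without control replicate 1) to 0.11, and was 0.0036 without control replicate 1 and TNF replicate 1. With TNF against control the cytosolic count of 9 ran from 6 (without control replicate 1) to 9 and was 4 without those 2 libraries, the class difference of 0.15 ran from 0.14 to 0.17, and the mitochondrial count lower, 1, ran from 0 to 2 and was 0 with DESeq2, only the compared groups, GC-corrected offsets with or without the block, and without the 2 libraries. With Senexin B added to TNF the cytosolic count of 2 was 1 with no filter, only the compared groups and GC-corrected offsets with or without the block, and ran from 1 to 3 higher and 0 to 1 lower over left-out libraries, where the class difference of -0.02 ran from -0.06 to -0.02. With TNF added to Senexin B 1 cytosolic gene, GARS, was called with only the compared groups, with GC-corrected offsets and the block, and without the 2 libraries, and the class difference of 0.04 ran from 0.01 to 0.06. The interaction's class difference of -0.14 ran from -0.15 to -0.09 and was -0.0751 without the 2 libraries. The control ratio of class levels was 6.59 by exons and 6.33 by the longest transcript. The causes of these shifts were not tested.

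Replicate numbers paired the libraries at most weakly. Same-numbered libraries of different groups deviated with correlations from -0.012 to 0.103 (median 0.0175), 1 of 18 above 0.1. Other pairs had -0.075 to 0.046 (median -0.01). With the replicate block 8, 3 and 9 cytosolic genes rose with Senexin B, with Senexin B added to TNF and with TNF. In the pairwise comparisons standard errors reached 0.24 for mitochondrial and 0.05 for cytosolic genes, and in the interaction 0.34 and 0.07.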
